A study of Mus musculus with 6 samples.

Results

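Retinal ganglion cells carry the output of the retina to the brain. The genes described here are 10 genes used to mark these cells: Rbpms, Pou4f1, Pou4f2, Sncg, Nefl, Nefm, Nefh, Thy1, Slc17a6 and Isl2. They were chosen by symbol from the 23420 genes of the count table, and all 10 were present. The series holds RNA-seq of mouse retina from 3 groups with 2 libraries each, 6 libraries in all. The control group had no treatment. The light group was exposed to light for 1 h and analysed after 4 days. The minocycline group had the same light plus daily intraperitoneal injections of minocycline, a tetracycline antibiotic, at 45 mg/kg. By the study's methods, dosing began the day before the light, with 2 injections a day at the start and 1 a day later. No group of the RNA-seq labels received the solvent alone, so light and minocycline were compared without a vehicle. The labels give the strain CD1, 10000 lux, 4 days of minocycline and an RNeasy kit for all or the treated groups, whereas the study's methods describe albino BALB/cJ mice of both sexes, aged 10 to 14 weeks and dark-adapted for 16 h, 15000 lux, 5 days of minocycline and a NucleoSpin kit. How many retinas or animals went into a library is not given in the sources used here, and p-values measure the spread between these libraries.

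Ganglion cells are few in the retina, and their axons form the optic nerve. Pou4f1 and Pou4f2 encode POU-domain transcription factors of the Brn3 family, and Isl2 encodes a LIM-homeodomain factor that works in subsets of these neurons. Nefl, Nefm and Nefh encode the light, medium and heavy neurofilament chains of large axons, Slc17a6 encodes a vesicular glutamate transporter, Sncg encodes gamma-synuclein, Thy1 a surface glycoprotein and Rbpms an RNA-binding protein. Light damage of this kind is known for the loss of photoreceptors, so ganglion cell genes offer a readout from cells outside the layer that is lost.

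Total counts were 15205930 and 15246937 in the control libraries, 15908907 and 18875611 in the light libraries, and 22856922 and 19629429 in the minocycline libraries, whose columns have one header in common and which are therefore named minocycline A and B. Levels are given in CPM, the count scaled to a common library size by TMM over all 6 libraries, which assumes that most genes are level between libraries. With no read counted, up to 3 counts remain possible, which equals 0.131 to 0.214 CPM depending on the library and covers counting error only. The sum of 9 genes of rods, the most numerous cells of the mouse retina, was 25172 to 53955 CPM. Control 1 stood apart by 77778 counts of the X-inactivation transcript Xist, against 25 to 188 in the other 5 libraries. The study's methods describe mice of both sexes, and the part of sex in the differences between control 1 and control 2 was not tested. Summed levels of 7 pigment cell genes set minocycline A and B apart, at 354 and 1451 CPM against 72.5 to 228 CPM elsewhere. Rpe65 and Ttr of that list did not share this. Rpe65 was at 18.8 and 31.8 CPM in minocycline A and B and 19.6 to 67.9 CPM elsewhere. Ttr was at 31.4 and 42.9 CPM in minocycline A and B and 37.0 to 88.1 CPM elsewhere. The sum of 8 corneal epithelium genes also set minocycline A and B apart, at 203 and 284 CPM against 2.53 to 16.5 CPM. Results that rest on these libraries are given with and without them.

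The 10 genes lie on chromosomes 7, 8, 9, 11 and 14 of the GRCm38 (mm10) build. Pou4f1 is at chr14:104461676-104467999 and Pou4f2 at chr8:78433010-78436645, both on the minus strand. RefSeq promoter windows of GRCm38.p6, from 250 bases before to 50 after a start site, were matched for 5 members, Pou4f1, Pou4f2, Sncg, Slc17a6 and Isl2. The part upstream of the start is shown for the pair of Brn3 factors, as relatives, and for the second of 2 start sites of Slc17a6, chosen for its motif. Capitals mark the motifs searched on both strands, the homeodomain core TAATTA and the E-box CAGCTG.
Pou4f1, chr14:104468000-104468249, minus strand: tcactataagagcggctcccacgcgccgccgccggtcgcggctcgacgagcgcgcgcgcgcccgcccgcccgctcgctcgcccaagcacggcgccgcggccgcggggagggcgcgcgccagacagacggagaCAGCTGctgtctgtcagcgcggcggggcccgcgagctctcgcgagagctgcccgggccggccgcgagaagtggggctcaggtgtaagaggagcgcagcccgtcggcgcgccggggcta
Pou4f2, chr8:78436648-78436897, minus strand: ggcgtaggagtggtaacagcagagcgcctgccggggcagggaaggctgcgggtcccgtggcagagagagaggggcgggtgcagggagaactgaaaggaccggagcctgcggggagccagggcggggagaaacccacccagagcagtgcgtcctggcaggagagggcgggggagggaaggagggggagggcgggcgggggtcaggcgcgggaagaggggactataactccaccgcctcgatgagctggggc
Slc17a6, chr7:51624387-51624636, plus strand: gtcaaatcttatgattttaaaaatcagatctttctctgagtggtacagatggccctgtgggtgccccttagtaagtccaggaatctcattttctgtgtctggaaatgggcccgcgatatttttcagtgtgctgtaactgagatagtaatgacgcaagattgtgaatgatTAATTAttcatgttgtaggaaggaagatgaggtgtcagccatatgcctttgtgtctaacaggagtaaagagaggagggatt
The Pou4f1 window held an E-box that starts 118 bases before the start site, and this Slc17a6 window held a TAATTA that starts 81 bases before it. The other Slc17a6 window and those of Pou4f2, Sncg and Isl2 held neither. Of all 32851 windows in the RefSeq table, 16.3% held CAGCTG and 5.29% held TAATTA. The TATA box letters TATAAA, found in 13.6% of the windows, were in none of the windows of these 5 genes. A match or its absence describes these letters only.

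Sncg, which is abundant in ganglion cells, was the highest of the 10 per kb of exon (GENCODE M21 union exon length), at 41.4 ± 17.1 CPM per kb in control retinas (mean ± SD, n = 2), and Isl2 was the lowest, at 0.631 ± 0.212 CPM per kb. The order of the control means was Sncg, Nefl, Thy1, Nefh, Slc17a6, Nefm, Rbpms, Pou4f1, Pou4f2 and Isl2, and the means of the light and of the minocycline group gave the same order. Of the 9 neighbouring pairs in that order, 8 kept it in all 6 libraries and Nefm was above Rbpms in 5. The SD ranges of neighbours overlapped in the control group except for Nefh, at 9.46 ± 1.88, and Slc17a6, at 4.46 ± 2.02 CPM per kb. Nefl (chr14:68083863-68089095, plus strand) and Nefm (chr14:68082590-68124846, minus strand) share 1108 bases of exon on opposite strands in the annotation, and whether strand was used in counting is not stated, so the levels of both are uncertain.

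The Brn3 genes differed widely between the 2 libraries of the control and of the minocycline group. Pou4f1 was at 8.78 and 4.71 CPM in control 1 and control 2, 7.98 and 8.77 CPM in light 1 and light 2, and 15.8 and 5.77 CPM in minocycline A and minocycline B. Pou4f2 was at 4.21 and 2.88 CPM in the control libraries, 4.43 and 3.70 CPM in the light libraries, and 6.82 and 3.12 CPM in minocycline A and B. Both genes were highest in minocycline A and lowest in control 2, and the libraries of the minocycline group lay on either side of the light group. Pou4f2 took 29.7% to 38.0% of the counts of the pair in the 6 libraries, and the 95% Wilson intervals, such as 26.0% to 39.5% in control 1, overlapped between all libraries. Their relative Pou4f3, the third Brn3 factor, had 3 to 19 counts per library. Isl2 was at 1.71 and 1.05 CPM in the control libraries, 1.34 and 1.94 CPM in the light libraries, and 2.62 and 1.22 CPM in minocycline A and B.

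The neurofilament genes were also highest in minocycline A, and Nefl and Nefm were lowest in control 2 but Nefh in light 2. Nefl was at 146 and 76.8 CPM in control 1 and 2, 120 and 115 CPM in light 1 and 2, and 232 and 120 CPM in minocycline A and B. Nefm was at 29.5 and 12.6 CPM, 29.5 and 24.3 CPM, and 55.7 and 18.5 CPM in the same order. Nefh was at 43.1 and 32.5 CPM, 39.3 and 31.9 CPM, and 57.2 and 39.6 CPM, and it had the smallest range of the 10 genes, 1.79-fold between the highest and the lowest library. Nefm had the widest range, 4.42-fold. The share of Nefm in the counts of the 3 chains was 10.3% in control 2 (95% Wilson interval 8.98% to 11.9%) and 10.4% in minocycline B (9.43% to 11.5%), below 13.5% to 16.2% in the other 4 libraries. Among relatives, Ina, the internexin chain, was at 20.2 and 11.7 CPM, 19.6 and 16.02 CPM, and 33.8 and 14.8 CPM, with the highest level in minocycline A and the lowest in control 2. Prph, peripherin, with 10 to 48 counts, was at 1.07 and 0.703 CPM, 1.92 and 1.71 CPM, and 2.10 and 0.582 CPM. It was lowest in minocycline B, and both light libraries were above both controls (log2 fold change 1.04, edgeR adjusted p = 0.153).

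Sncg and Thy1 showed the same split within the minocycline group. Sncg was at 45.6 and 25.02 CPM in control 1 and 2, 48.4 and 49.1 CPM in light 1 and 2, and 83.3 and 40.1 CPM in minocycline A and B. Thy1 was at 55.8 and 30.7 CPM, 55.2 and 41.4 CPM, and 104 and 32.7 CPM. Slc17a6, the glutamate transporter, was at 31.8 and 16.4 CPM, 32.6 and 25.5 CPM, and 53.5 and 23.0 CPM. Slc17a7, its relative of photoreceptors and bipolar cells, was at 2110 and 1722 CPM in the control libraries, 1471 and 1185 CPM in the light libraries and 1822 and 1941 CPM in minocycline A and B. It did not share the split between minocycline libraries.

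**Figure D1:**
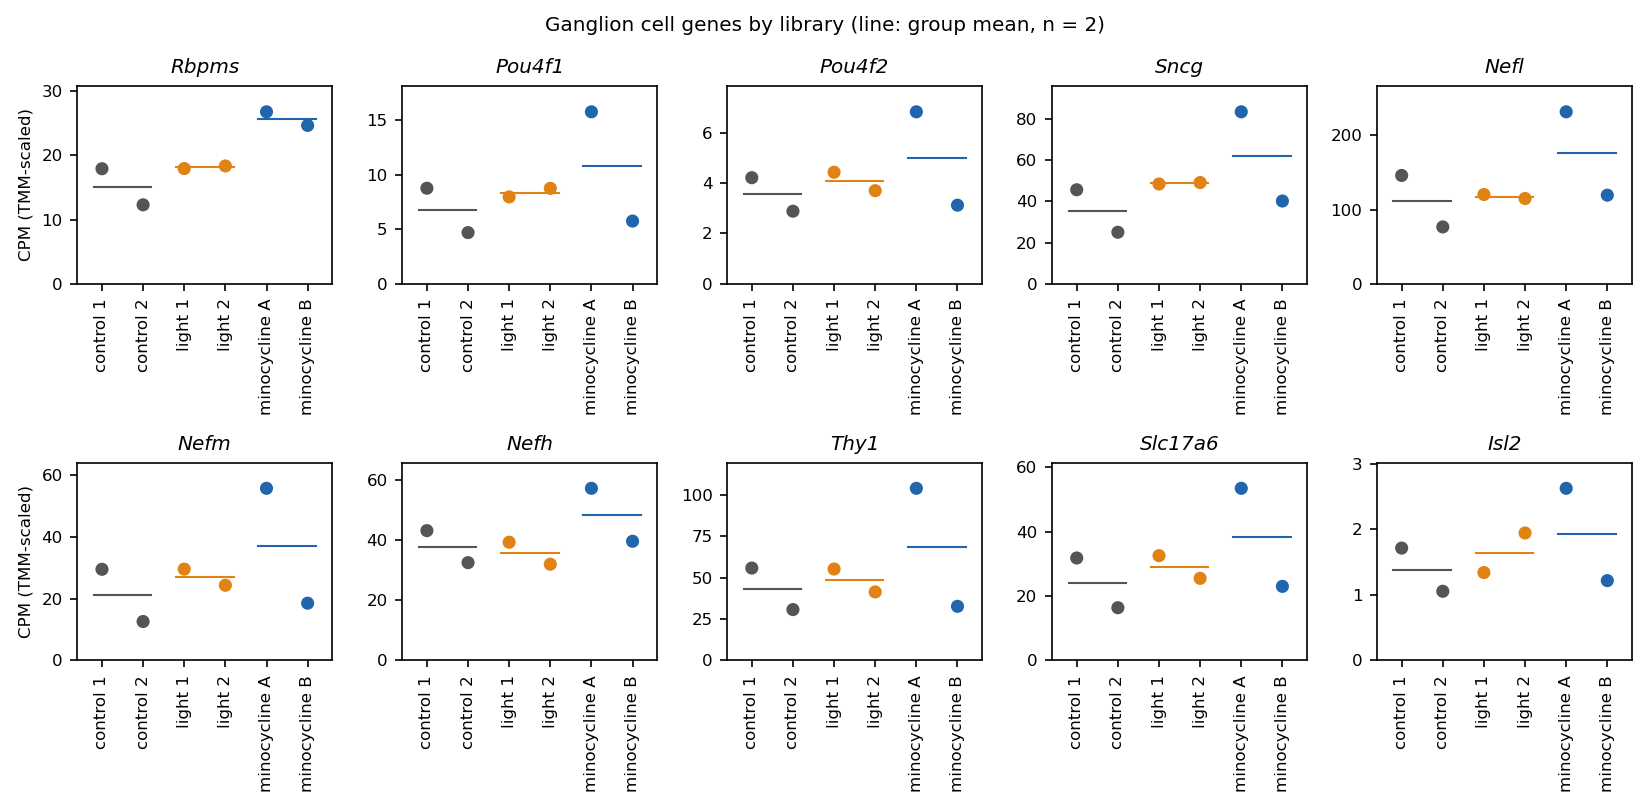
CPM of each of the 10 genes (y axis, from 0) in the 6 libraries (x axis), with points for libraries and lines for the mean of the 2 libraries of a group. Minocycline A is the highest library in all 10 panels, and control 2 is the lowest in 9, with Nefh lowest in light 2.

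Rbpms was the exception within the minocycline group. This RNA-binding protein was at 17.9 and 12.3 CPM in control 1 and 2, 17.9 and 18.3 CPM in light 1 and 2, and 26.8 and 24.6 CPM in minocycline A and B. Both minocycline libraries were above all the others, and minocycline A was 1.09-fold above B, against 1.44-fold to 3.18-fold for the other 9 genes. Rbpms took 7.997% of the members' counts in minocycline B and 4.198% to 5.73% in the other 5 libraries. Its paralog Rbpms2 was at 11.2 and 5.98 CPM in minocycline A and B and so split as the other genes did. Rbpms is also made by smooth muscle. The 9 smooth muscle genes summed to 217 and 572 CPM in minocycline A and B and to 131 to 192 CPM in the other 4 libraries, and none of the 9 was at 0 in all libraries. Acta2, smooth muscle actin, was at 23.7 and 136 CPM in minocycline A and B and at 1.21 to 5.55 CPM elsewhere, and their part in the Rbpms level was not tested.

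Between the replicate libraries of the control and of the minocycline group the 10 genes moved together. All 10 were higher in control 1 than in control 2, by 1.33-fold to 2.34-fold with a median of 1.82-fold, and all 10 were higher in minocycline A than in B, by 1.09-fold to 3.18-fold with a median of 2.17-fold. Light 1 was above light 2 for 6 of 10, with ratios of 0.689 to 1.33 and a median of 1.12. A ratio of at least 1.5, a limit chosen after the values were seen, was reached by 7 of 10 genes for control 1 over control 2, where 8.99% of all genes reached it. For minocycline A over B it was reached by 8 of 10 genes, where 12.1% of all genes reached it, and for light 1 over light 2 by 0 of 10, where 2.83% did. The median log2 ratio over all 14759 genes compared was 0.01 for both the control and the minocycline pair, against 0.86 and 1.12 for the 10 genes. The split of the 10 genes was thus larger than that of most genes in the same libraries.

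**Figure D2:**
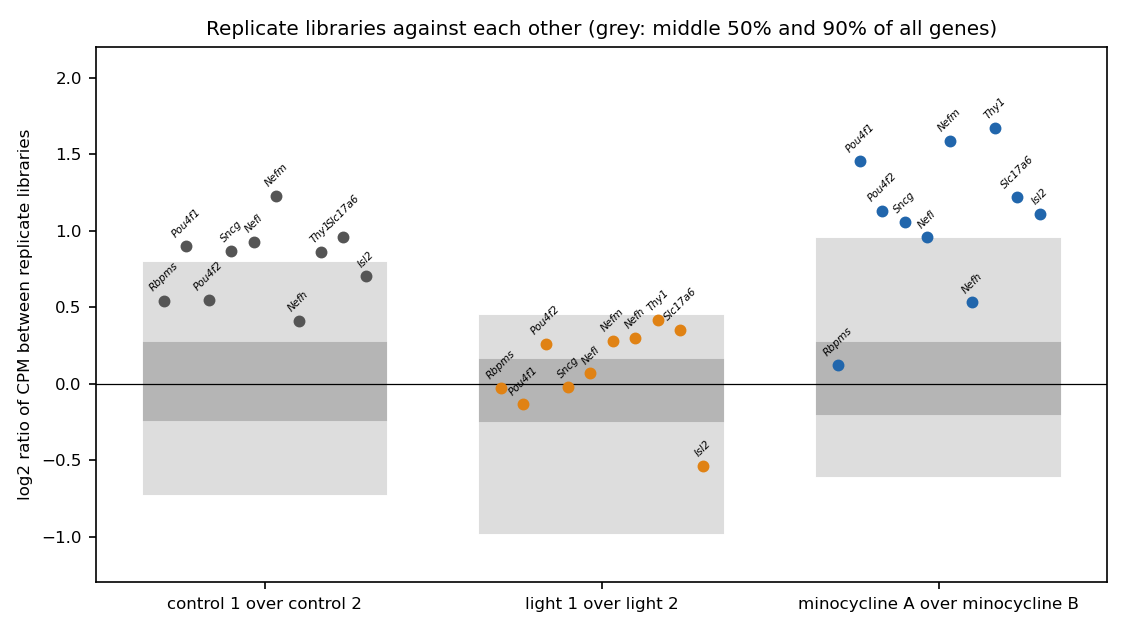
Log2 ratio of CPM between the 2 libraries of each group (y axis) for the 10 genes (points, with names) in the 3 groups (x axis), over grey bars for the middle 50% and the middle 90% of all 14759 genes. For minocycline A over B, 8 of 10 genes lie above the upper edge of the 90% bar at 0.95, and none does for light 1 over light 2.

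Further ganglion cell genes split as the members did. All 15 genes of a list of further ganglion cell genes, among them Nrn1 (neuritin) and Uchl1 (a ubiquitin hydrolase of neurons), were higher in control 1 than in control 2 and in minocycline A than in B. Their summed level was 381 and 249 CPM in control 1 and 2, 406 and 421 CPM in light 1 and 2, and 607 and 274 CPM in minocycline A and B. Of 10 genes of ganglion cell subtypes, 8 were higher in control 1 than in control 2 and 8 in minocycline A than in B, where the median log2 ratio was 0.21, against 1.10 for the 15 genes. The subtype genes summed to 297 and 248 CPM in minocycline A and B. The other 2, named after their values were seen, were lower in minocycline A. Foxp2, a forkhead factor of some ganglion cells, was at 3.804 and 7.25 CPM and Jam2, a junctional adhesion molecule, at 139 and 151 CPM in minocycline A and B. Over all genes, 51% were higher in control 1 than in control 2 and 51.5% in minocycline A than in B. Genes of amacrine cells, the inhibitory interneurons that border ganglion cells, were higher in minocycline A than in B in 12 of 12. They were higher in control 1 than in control 2 in 10 of 12. By log2 CPM with a prior count of 2, their median log2 ratio of A over B was 1.01, close to 1.08 for the members. For control 1 over control 2 it was 0.54, against 0.86 for the members. Bipolar cell genes were higher in control 1 and in minocycline A in 10 of 12 each, at median log2 ratios of 0.38 and 0.57. Genes of Mueller cells, the radial glia of the retina, were higher in minocycline A in 10 of 10 and in control 1 in 8 of 10. Their median log2 ratios were 0.50 for minocycline A over B and 0.55 for control 1 over control 2. Microglial genes were higher in minocycline A in 10 of 10 but in control 1 in 3 of 10, at 1.32 and -0.29. Housekeeping genes were higher in 8 of 10 for both pairs, at median log2 ratios of 0.27 and 0.13, and rod genes in control 1 in 7 of 9 and in minocycline A in 2 of 9. In contrast, pigment cell genes were lower in control 1 than in control 2 and in minocycline A than in B in all 7, and smooth muscle genes in 9 of 9 for minocycline and 8 of 9 for control. The 9 genes of oligodendrocytes, which wrap ganglion cell axons in the optic nerve, summed to 41.4 to 63.7 CPM, with 43.3 and 47.1 CPM in control 1 and 2 and 45.7 and 41.4 CPM in minocycline A and B. The part of each of these in the members' levels was not tested.

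**Figure D3:**
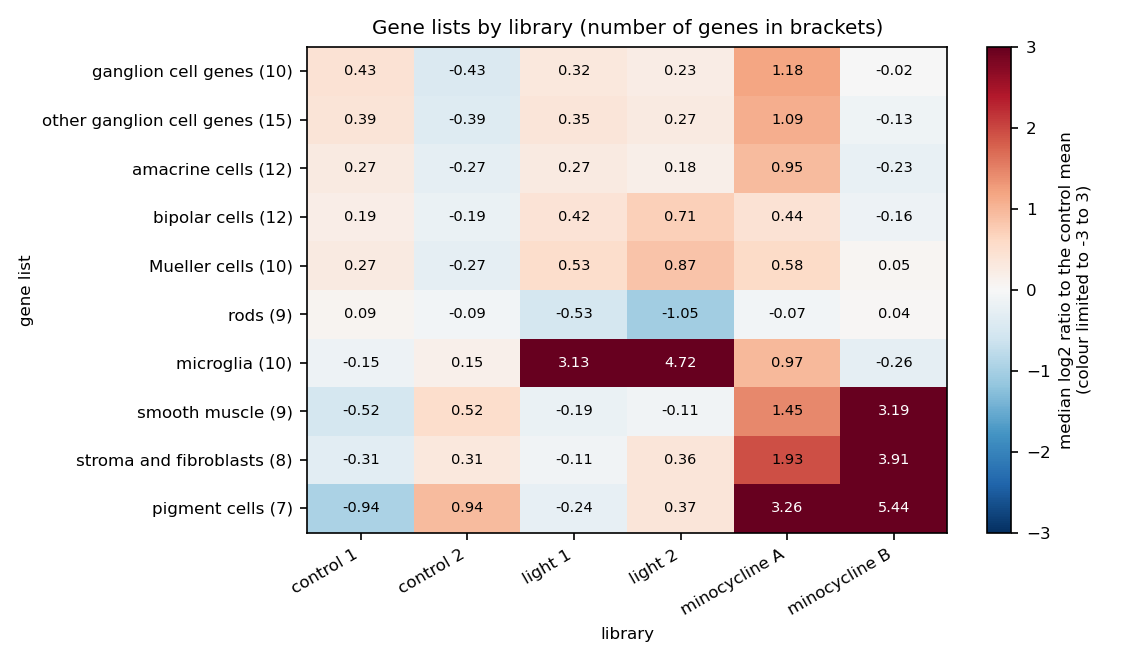
Median log2 ratio of a gene list to its control mean (colour and number) for 10 lists (y axis, number of genes in brackets) in the 6 libraries (x axis). The ganglion cell genes and the other ganglion cell genes stand at 1.18 and 1.09 in minocycline A, and at -0.02 and -0.13 in minocycline B, where pigment cell genes stand at 5.44.

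The 5 genes most like the mean profile of the 10, by Pearson's r over the 6 libraries among 9815 genes with at least 10 CPM on average, were Serinc1, Aldoc, Nrn1, Tppp and 2510009E07Rik. Their r values were 0.995 to 0.998, and without the 2 libraries farthest from the median, control 2 and minocycline A, they were 0.925 to 0.985. Of the 9815 genes, 461 had an r of at least 0.9. Serinc1, a serine incorporator, was at 353 and 272 CPM in control 1 and 2, 351 and 336 CPM in light 1 and 2, and 453 and 323 CPM in minocycline A and B. Aldoc, aldolase C, was at 247 and 178 CPM, 236 and 230 CPM, and 326 and 221 CPM. Both differed by less than 2-fold between their highest and lowest library, while 9 of the 10 members differed by more.

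Light exposure was compared with control to ask whether ganglion cell genes change 4 days after light. No member passed the test. By the edgeR quasi-likelihood F test, adjusted by Benjamini-Hochberg over 14349 genes, 0 of 10 had an adjusted p under 0.05, against 11.3% of all genes, and 0 had an unadjusted p under 0.05, against 28.9% of all genes. DESeq2 gave 0 by both criteria, against 12.9% and 20% of the genes it tested. The median log2 fold change of the members was 0.27, against 0.00 over all genes, and the range was -0.08 for Nefh to 0.48 for Sncg. Sncg had a fold of 1.39 (95% interval 0.919 to 2.10, adjusted p = 0.269). Nefl had a fold of 1.06 (0.660 to 1.72), and Nefm, the least certain of the larger changes, had a fold of 1.29 (0.646 to 2.58). Both light libraries were above both controls for 2 members, Rbpms and Sncg, where 30.1% of all genes were so ordered, and 0 members were below, where 30.8% of all genes were. The intervals of all 10 lay between 0.608-fold and 2.58-fold, and each included 1.

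The sign of the small median depended on control 2. Without control 2 the median was -0.09 and 8 of 10 members were below 0, and without control 1 it was 0.64, with all 10 above 0. Without control 1, 7 of 10 members had an unadjusted edgeR p under 0.05, against 28.5% of all genes, and 0 were called (lowest adjusted p = 0.0624, for Sncg at a log2 fold change of 0.96). In that fit control 2, the lowest library for 9 of 10 members, stands alone for its group and is assumed to vary as the light libraries do. The 9 rod genes summed to 53955 and 46176 CPM in the control libraries and 34747 and 25172 CPM in the light libraries. In bulk retina, fewer cells of a type and less RNA per cell cannot be told apart. When the summed counts of 24 amacrine and bipolar genes were taken as the library size, the median of the members was -0.17 and 9 of 10 were below 0, with adjusted p of at least 0.110, while the median of all genes moved to -0.44. With the total counts as the library size the median of the members was 0.51 and that of all genes 0.24. These scalings shift all genes together, and the median of the members stood 0.27 above that of all genes under each of the 3. The reference itself was not level, since 5 of its 12 bipolar genes were called higher with light (median log2 fold change of the 12, 0.56). Per 1000 counts of these 24 genes, the 10 members summed to 161 and 100.4 in control 1 and 2 and to 128 and 95.5 in light 1 and 2.

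**Figure D4:**
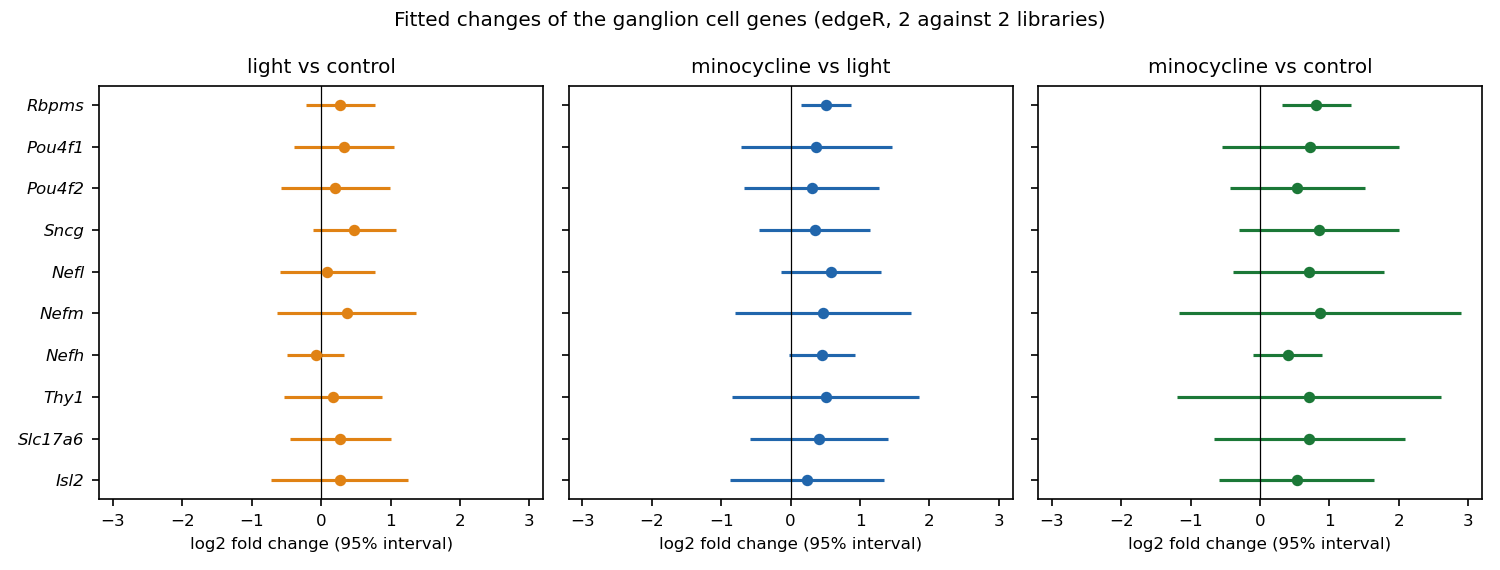
Log2 fold change (x axis) of each gene (y axis) in the 3 comparisons, with points for the edgeR estimate and lines for the 95% interval. All intervals for light against control span 0, and Rbpms is the single gene whose interval lies above 0 in the minocycline comparisons.

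Minocycline was compared with light to ask whether ganglion cell genes differ with the drug. Again 0 of 10 members had an adjusted p under 0.05, where 0.0542% of 14750 genes did. By the unadjusted p of edgeR, 1 member was under 0.05, Rbpms, where 21.1% of all genes were. It had a fold of 1.43 (95% interval 1.11 to 1.84, edgeR adjusted p = 0.130), and both minocycline libraries were above both light libraries. DESeq2 called 0 members and 8.17% of all genes, and its unadjusted p was under 0.05 for 2, Rbpms and Nefl, where it was for 15.5% of genes. All 10 estimates were above 0, with a median of 0.43 against 0.01 over all genes. It was 0.27 with total counts as the library size and 0.66 with amacrine and bipolar genes, where the median of all genes was -0.17 and 0.34. Both minocycline libraries were above both light libraries for 2 members, Rbpms and Nefh, where 26.8% of all genes were, and 0 were below, where 28.1% were. Thy1 had a fold of 1.42 with an interval of 0.559 to 3.60, which spans the difference between minocycline A and B. Without minocycline A the median was -0.32 and 7 of 10 members were below 0, and without minocycline B it was 0.83, so at this scaling (TMM) the direction rested on minocycline A. Per 1000 counts of the 24 amacrine and bipolar genes, minocycline B exceeded the light mean for 9 of 10 members, against 3 of 10 by CPM. It exceeded both light libraries for 5 of 10 per 1000 reference counts and for 2 of 10 by CPM. This reference was not level between the groups. Of its 12 bipolar genes, 10 had estimates below 0 (median log2 fold change -0.36), and of its 12 amacrine genes 8 were above 0 (0.26). Without minocycline B the unadjusted edgeR p was under 0.05 for 8 of 10 members, all higher, against 16.5% of all genes (lowest adjusted p = 0.0667), in a fit where minocycline A alone stands for the group and is assumed to vary as the light libraries do. Without minocycline A, where B stands alone in the same way, it was under 0.05 for 3, Rbpms higher and Nefm and Thy1 lower, against 23.2% of all genes. Rbpms stayed at 0.48 without minocycline A and 0.56 without B.

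Minocycline was also compared with control, a pair of groups that differ by light and drug together and share their libraries with the comparisons above. Here 0 of 10 members were called, where 0.162% of 14181 genes were, and by the unadjusted p of edgeR 1 was under 0.05, again Rbpms, where 7.01% of all genes were. Its fold was 1.76 (95% interval 1.25 to 2.47, edgeR adjusted p = 0.309). DESeq2 called 0 members and 1.09% of all genes, and its unadjusted p was under 0.05 for Rbpms and Sncg, as for 4.95% of genes. The median of the members was 0.71 and that of all genes 0.02. Rbpms was the 1 member with both minocycline libraries above both controls, where 15.5% of all genes were, and 0 members were below, where 24.5% were. Nefm, at a fold of 1.82, had the widest interval of the 10, 0.446 to 7.47. Without minocycline A the median was -0.08 and 6 of 10 members were below 0. Without minocycline B, 6 members were called, Pou4f1, Sncg, Nefl, Nefm, Thy1 and Slc17a6, with log2 fold changes of 1.06 to 1.41 and adjusted p of 1.23e-05 to 0.0144, where 3.33% of 14398 genes were called, and 9 members had an unadjusted p under 0.05, against 15.1% of all genes. In that fit minocycline A alone stands for the group and is assumed to vary as the controls do.

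**Figure D5:**
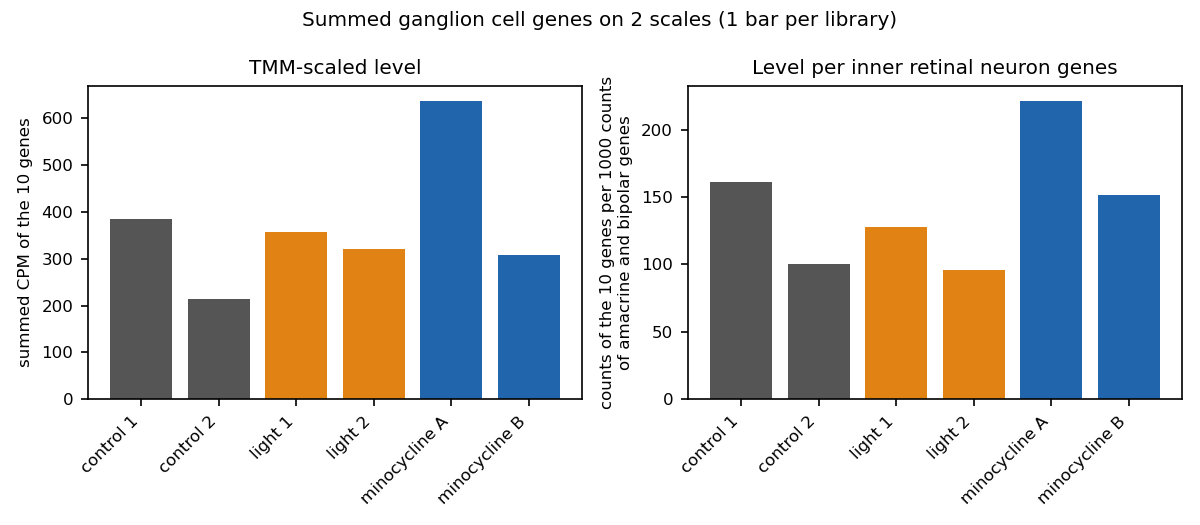
Sum of the 10 genes in each library (1 bar each, x axis) as CPM (left) and per 1000 counts of 24 amacrine and bipolar genes (right), both from 0. Minocycline A holds the highest bar on both scales, at 637 CPM and 221 per 1000, and control 2 holds the lowest bar on the left, at 215 CPM, with light 2 lowest on the right at 95.5.

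Relative to the amacrine and bipolar genes, minocycline A and B summed to 221 and 151 per 1000 and the split of A over B was 1.46-fold, against a split of 1.61-fold in control and 1.34-fold in light. Rbpms then ran the other way, at 0.768 for A over B, and Nefh was level at 1.02. Within this reference, amacrine genes summed to 1174 and 639 CPM in minocycline A and B, and bipolar genes to 1707 and 1398 CPM. The members summed to 637 and 308 CPM, so relative to amacrine genes alone their split would be smaller than 1.46-fold. The members held 0.0354% and 0.0200% of all counts in control 1 and 2, while their shares in minocycline A and B were 0.0638% and 0.0297%, with 95% Wilson intervals of 0.0345% to 0.0364%, 0.0194% to 0.0208%, 0.0627% to 0.0648% and 0.0289% to 0.0305%. In light 1 and 2 the shares were 0.0385% (0.0376% to 0.0395%) and 0.0358% (0.0349% to 0.0366%). The intervals cover counting error only, and they did not overlap within any of the 3 groups.

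In 4 further lists of ganglion cell, axon injury and neurotrophin genes, 5 of 40 tested genes (12.5%) were called for light against control, a share near the 11.3% of all genes. Of 14 tested genes of the further ganglion cell list, 1 rose with light, Isl1, a LIM-homeodomain factor of ganglion, bipolar and amacrine cells (log2 fold change 1.05, edgeR adjusted p = 0.0196). Isl1 is also on the bipolar list, of which 5 of 12 were called higher. Its level was 58.5 and 45.1 CPM in control, 86.1 and 128 CPM in light and 61.2 and 39.9 CPM in minocycline A and B. Of 10 ganglion cell subtype genes, 1 rose, Kcng4, a potassium channel subunit of alpha ganglion cells (1.09, adjusted p = 0.0230). Of 9 tested genes of axon injury, 0 rose and 2 fell with light, the stress gene Trib3 (-1.56, adjusted p = 0.00806) and the transcription factor Atf3 (-0.91, adjusted p = 0.0479). Atf3 was at 48.7 and 28.1 CPM in control, 18.6 and 21.8 CPM in light and 35.5 and 94.5 CPM in minocycline A and B. Of 7 tested neurotrophin genes, 1 fell, the receptor Ntrk3 (-0.61, adjusted p = 0.0421). These 5 calls kept their sign in all alternatives, but all 5 were lost without control 1 (adjusted p of 0.0624 to 0.166, with Atf3 at a log2 fold change of -0.48 and the other 4 farther from 0 than with all libraries) and 4, all but that of Atf3, without control 2 (0.0746 to 0.186). Over all genes the calls fell from 1624 to 4 without control 1 and to 57 without control 2. Without light 1 those of Atf3 and Ntrk3 were lost (0.0627 and 0.0979), and without light 2 those of Isl1, Kcng4 and Ntrk3 (0.0680 to 0.307). With total counts as the library size Atf3 and Ntrk3 were not called (0.115 and 0.148), and with amacrine and bipolar genes Isl1 and Kcng4 were not (0.0578 and 0.0757). The fit of all 6 libraries together called neither Isl1, Kcng4 nor Atf3 (0.05001, 0.0684 and 0.315), and upper-quartile scaling did not call Ntrk3 (0.0505). In edgeR 0 genes of these 4 lists passed the test in either minocycline comparison. For minocycline against light, 12 of 42 tested genes (28.6%) had an unadjusted p under 0.05, against 21.1% of all genes, and DESeq2 called 5 of 44, against 8.17%. For minocycline against control 5 of 41 (12.2%) did, against 7.01%, and DESeq2 called 0 of 47, against 1.09%. All 10 microglial genes had estimates above 0 for light against control (median log2 fold change 4.16), and 4 of 10 were called. They summed to 328 and 1033 CPM in light 1 and 2 and to 32.6 to 82.9 CPM in the other 4 libraries. Their part in these calls was not tested.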

How the data were processed

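The RNA of 6 retinal libraries was measured by RNA sequencing with 50 cycles per read. The authors prepared stranded mRNA libraries, aligned the reads with STAR to mm10 and deposited counts per gene, and the submitters' processing notes also name DESeq2. The deposited counts are whole numbers without scaling for 23420 genes, although the study's data statement calls them normalized. The versions, the gene annotation and the use of strand are not given in the sources used here. Every value column was used (0 unused).

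Each pair of groups was fitted on its own in edgeR (version 4.0.16, R version 4.3.3) after filterByExpr and TMM scaling, with robust quasi-likelihood dispersions and Benjamini-Hochberg adjustment over every gene in the fit. Genes with an adjusted p below 0.05 were called. Adding the cutoff of the study, a log2 fold change of 2 or more in either direction, left 0 members in each comparison. Intervals of fold changes are 95% intervals from the fitted standard error and residual degrees of freedom. Likeness used log2 CPM with a prior count of 2. Coordinates and lengths came from GENCODE M21 and promoters from RefSeq, both of GRCm38. Replicate libraries were not duplicates of each other: their counts differed by far more than sampling noise.

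The members and the 19 gene lists were chosen with earlier results of these data known, and 1 gene of the rod list is not reported here. All members were named, with genes from each list that passed the test (up to 4) or had the highest level (up to 2), the 5 genes of most similar profile and family relatives. Alternatives were DESeq2 1.42.0, other library scalings, other filters, no robust estimation, all 6 libraries in one fit, other thresholds, the replicate block and each library left out in turn.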

Additional observations from a re-analysis of the deposited data

How the results depend on the processing

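No member was called under DESeq2, under the other scalings and filters, without robust estimation, at an adjusted p under 0.1 or with all 6 libraries in one fit, in any of the 3 comparisons. The log2 fold changes of light against control were below 0 with amacrine and bipolar genes as the library size for Rbpms (-0.16), Pou4f1 (-0.11), Pou4f2 (-0.22), Nefl (-0.33), Nefm (-0.039), Thy1 (-0.24), Slc17a6 (-0.13), Isl2 (-0.19) and Nefh (-0.50), where all genes shifted by -0.44, and Nefh, also below 0 with TMM, was at 0.16 with total counts. The amacrine and bipolar scaling moved the median of all genes to 0.34 for minocycline against light and -0.11 for minocycline against control, and total counts moved it to -0.17 for minocycline against light. Over all genes, DESeq2 called 1954 for light against control, 1219 for minocycline against light and 167 for minocycline against control, where edgeR called 1624, 8 and 23. Of the genes edgeR called for light against control, 1079 were higher and 545 lower, with total counts 1930 and 133, and with amacrine and bipolar genes 788 and 3653. With the replicate block, possible for light against control only, 1 member was called, Sncg (0.53, adjusted p = 0.0325), among 2525 of 14349 genes. Control and light libraries of the same number did not deviate together (r = -0.01 over 14759 genes), so they share only a number. No paired analysis was possible because of the shared header in the minocycline comparisons.

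Leaving out each library in turn gave these ranges of log2 fold change. For light against control they were 0.10 to 0.96 for Sncg, 0.024 to 0.56 for Rbpms, -0.27 to 0.13 for Nefh, -0.062 to 0.83 for Pou4f1, -0.048 to 0.49 for Pou4f2, -0.31 to 0.61 for Nefl, -0.13 to 1.09 for Nefm, -0.20 to 0.65 for Thy1, -0.13 to 0.82 for Slc17a6 and -0.0495 to 0.64 for Isl2. For minocycline against light they were 0.058 to 0.97 for Nefl, 0.19 to 0.68 for Nefh, 0.48 to 0.56 for Rbpms, -0.40 to 0.67 for Isl2, -0.50 to 0.91 for Pou4f1, -0.34 to 0.75 for Pou4f2, -0.24 to 0.77 for Sncg, -0.50 to 1.05 for Nefm, -0.53 to 1.10 for Thy1, -0.30 to 0.88 for Slc17a6 and -0.32 to 0.83 for the median of the members. For minocycline against control they were 0.57 to 1.09 for Rbpms, 0.23 to 1.33 for Sncg, 0.14 to 1.23 for Nefl, 0.11 to 0.61 for Nefh, -0.18 to 1.23 for Pou4f1, -0.14 to 0.94 for Pou4f2, -0.14 to 1.59 for Nefm, -0.36 to 1.27 for Thy1, -0.0245 to 1.26 for Slc17a6 and -0.14 to 0.92 for Isl2, and 0 to 6 members were called. The causes were not tested. Isl2 had 15 to 60 counts per library and Pou4f2 41 to 156, the fewest of the members.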
